A study of Homo sapiens with 24 samples.

Results

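The 10 genes described here encode the machinery by which a cell detects nucleic acid in the wrong place and keeps that detection in check, and they were taken as a fixed list of names from the 28277 genes of the deposited count tables: CGAS, STING1, TBK1, IKBKE, MAVS, IFIH1, TREX1, ADAR, SAMHD1 and ZBP1. All 10 were listed in both tables. They were listed by known function, with earlier results of these data known.

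RNA was sequenced from PEO1 and PEO4, cell lines of a high-grade serous carcinoma of the ovary that were derived from the same disease before and after resistance to chemotherapy. BRCA2 status is given here as the study describes it, since the genotype label reads WT for every sample. In the A pair, untreated PEO1 A cells lacked functional BRCA2 and untreated PEO4 A cells had it. In the B pair, PEO1 B is a PEO1 derivative with a reversion mutation that restored BRCA2 (PEO1 BRCA+), it was compared with PEO4 B, which is also BRCA2-proficient, and each line was sequenced untreated and after 2 h and 6 h in medium with 5 µM pyridostatin (PDS), a small molecule that binds and stabilises G-quadruplexes. The 8 conditions had 3 libraries each, 24 in all, described by the submitters as biological replicates; nothing in the descriptions ties the replicates to separately thawed or passaged cultures, so p-values measure the spread between these libraries. Each line is a single model, and the comparison of PEO1 with PEO4 has no second pair of lines behind it.

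In this pathway, cGAS (CGAS) binds DNA in the cytosol and makes the messenger cGAMP, which activates STING (STING1) on the endoplasmic reticulum. MDA5 (IFIH1) binds long double-stranded RNA and passes the signal to MAVS on the mitochondrial outer membrane, and both routes converge on the kinases TBK1 and IKKε (IKBKE), which phosphorylate IRF3 and switch on interferon genes. TREX1 degrades cytosolic DNA, SAMHD1 hydrolyses deoxynucleotides and limits the release of DNA from stalled forks, ADAR edits adenosine to inosine in double-stranded RNA so that it is not taken for foreign, and ZBP1 recognises left-handed Z-form nucleic acid and can start necroptosis. In cells, IFIH1, ADAR, ZBP1 and several of the others are themselves induced by interferon.

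Total counts ranged from 32528913 to 63882077 in the A libraries and from 18699929 to 43713947 in the B libraries. Every PDS library was deeper (at least 33260167 counts) than every untreated B library (at most 22375644). Levels are given as CPM, the counts of a gene relative to the library total in units of 1e+06 counts, with totals scaled by the trimmed mean of M-values (TMM). Differences are log2 fold changes with their standard error (SE) from edgeR's quasi-likelihood test, and a gene is said to have passed where the Benjamini-Hochberg adjusted p over all genes tested was under 0.05 and to have been called where the log2 fold change was also beyond 1 in either direction. The A and B tables were fitted separately and their levels are not tested against each other. As a check of the labelled cell type, all 9 epithelial ovarian carcinoma markers had at least 10 counts in every library. Summed leukocyte markers stayed between 0.798 and 7.04 CPM. Among these markers CD3E was at 0 in every condition, but CD14 was not. In PEO1 A, CD14 measured 5.10 to 5.56 CPM of a leukocyte sum of 5.38 to 5.84. Fibroblast markers summed to 32.5 to 36.0 CPM in PEO1 A. Among genes with 1 to 20 counts, even counts made up 68.6 to 74.0% in the A libraries and 41.5 to 43.8% in the B libraries.

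**Figure D1:**
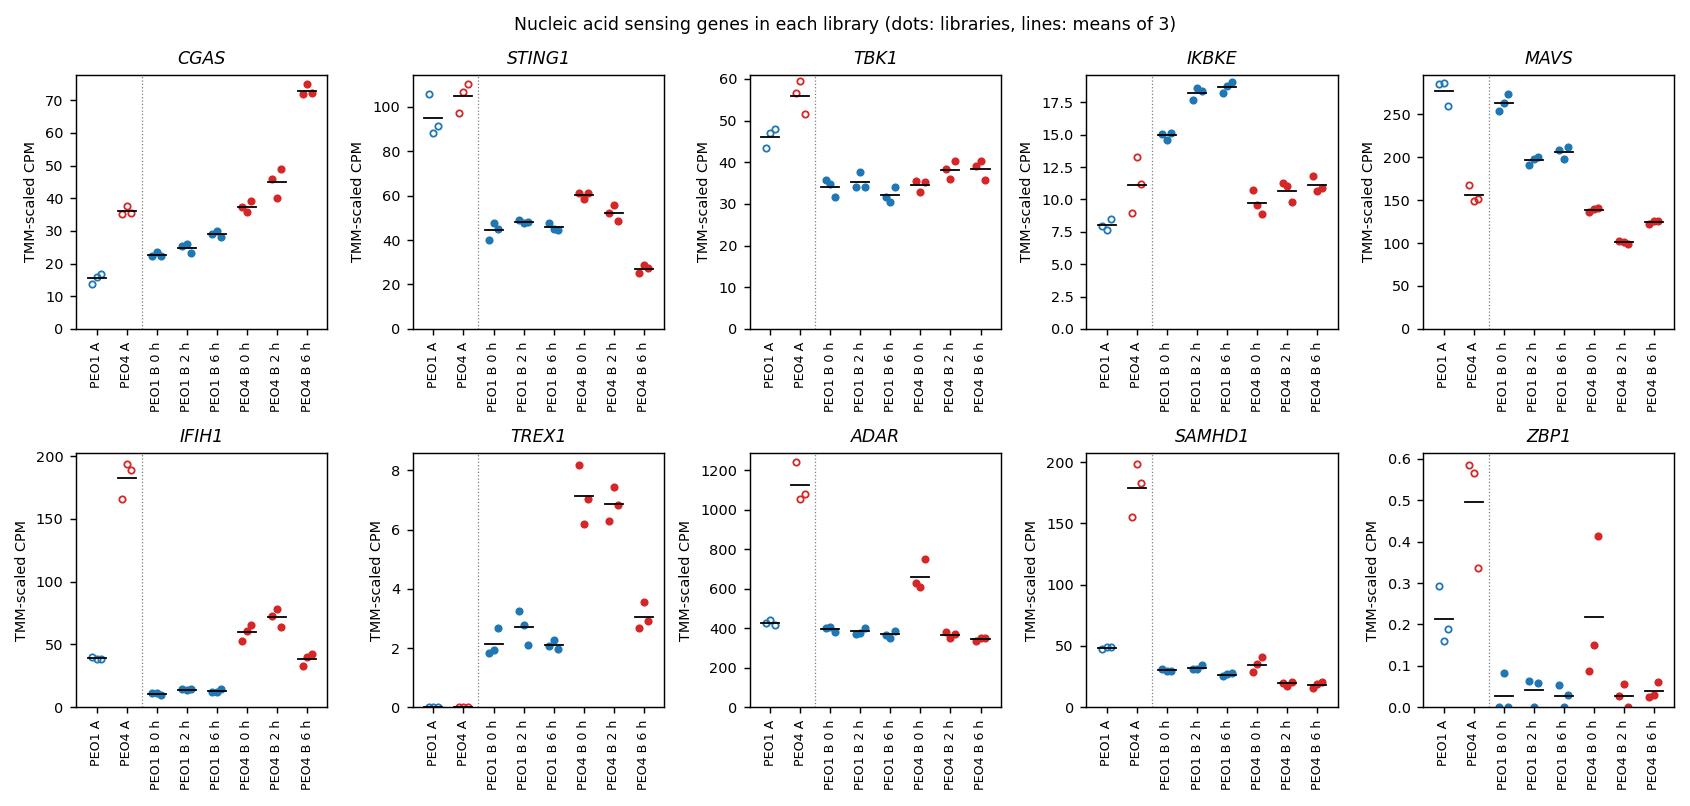
TMM-scaled CPM of each of the 10 genes in every library, with 1 panel per gene and the 8 conditions on the x axis; open circles are the A pair, filled circles the B pair, blue PEO1 and red PEO4, and black lines are means of 3 libraries. CGAS in PEO4 B lies between 71.8 and 74.8 CPM after 6 h of PDS, above every other library, while STING1 in the same libraries lies between 25.04 and 28.9, below every other library.

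Per kilobase of the representative transcript, ADAR was the most abundant of the 10 in every condition, with condition means from 52.3 to 170 CPM per kb. ZBP1 was the least abundant wherever TREX1 had counts. Across the 6 B conditions, the highest condition mean was 6.58 times the lowest for IFIH1, 3.40 for TREX1, 3.21 for CGAS, 2.61 for MAVS and 2.22 for STING1. It was 1.92 times for ADAR and for IKBKE, 1.90 for SAMHD1 and 1.20 for TBK1, which varied least. In untreated PEO4 B cells the per-kilobase order after ADAR was STING1 (27.8 CPM per kb), IFIH1 (16.7), MAVS (11.8) and CGAS (11.7). After 6 h of PDS, CGAS stood second (22.8).

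The first question, which the A pair addresses, is how expression differs between the chemoresistant and the sensitive line. In untreated A cells, 8 of the 9 genes that could be tested differed, 7 higher and 1 lower in PEO4, and 5 were called. Of all 15882 genes tested, 61.6% passed, 30.1% as higher and 31.6% as lower, and 25.8% were called, so differing was itself common. The median difference was 1.21 for the 9 genes and -0.01 for all genes. In untreated B cells, where both lines are BRCA2-proficient, 5 of 9 were higher and 2 lower in PEO4, and 2 were called, against 68.6% passed (34.0% higher, 34.6% lower) and 24.8% called among 17020 genes. The median difference of these 9 was 0.44. CGAS, IFIH1 and ADAR were higher and MAVS lower in PEO4 in both pairs. IKBKE passed in opposite directions, higher in PEO4 A and lower in PEO4 B.

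**Figure D2:**
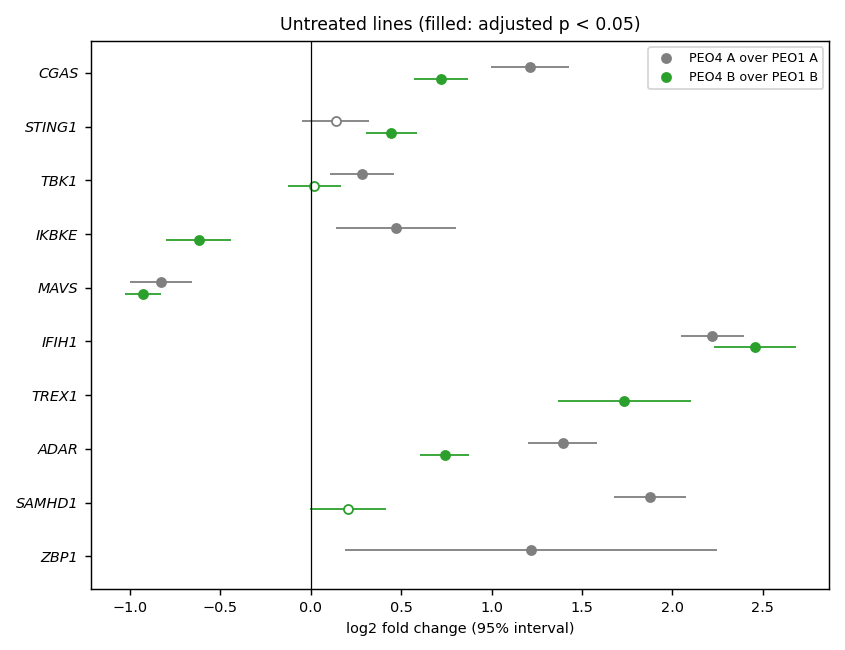
Log2 fold change of PEO4 over PEO1 in untreated cells with its 95% interval, grey for the A pair and green for the B pair; filled symbols passed at an adjusted p under 0.05. IFIH1 lies farthest to the right in both pairs (2.22 and 2.46), MAVS lies left of 0 in both (-0.83 and -0.93), and IKBKE lies right of 0 in the A pair (0.47) and left of it in the B pair (-0.62).

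The second question is how each line responded to the G-quadruplex ligand. In PEO1 B 3 of the 9 passed at 2 h, 2 higher and 1 lower, where 52.6% of all genes passed (26.4% higher, 26.2% lower) and 7.57% were called. At 6 h again 2 were higher and 1 lower, where 53.0% of all genes passed (27.0% higher, 26.0% lower) and 8.13% were called. By edgeR none of the 9 was called at either time, none reached that fold at an unadjusted p under 0.05, and DESeq2 called none. MAVS was lower and IKBKE higher at both times, IFIH1 was higher at 2 h and CGAS at 6 h. Between 2 and 6 h in PEO1 B, edgeR passed 0 of 9 (6.94% of all genes passed and 0.170% were called), 2 of 9 had an unadjusted p under 0.05, and DESeq2 passed 0. CGAS passed there in 3 alternative fits (adjusted p 0.0273 to 0.0489) and SAMHD1 in 1, with only the groups compared (adjusted p = 0.00856).

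In PEO4 B more of the 9 passed at each time. At 2 h, 6 of 9 passed, 2 higher and 4 lower (65.3% of all genes passed, 33.3% higher and 32.0% lower, and 17.4% were called), and none was called by edgeR, by DESeq2 or at an unadjusted p under 0.05 with that fold. At 6 h, 8 of 9 passed, with CGAS and IKBKE higher and STING1, MAVS, IFIH1, TREX1, ADAR and SAMHD1 lower, and STING1 and TREX1 were called (69.8% of all genes passed, 34.6% higher and 35.2% lower, and 22.6% were called). With library totals or upper-quartile scaling 4 were called, ADAR (-1.10 by library totals) and SAMHD1 (-1.09) being added. The median change at 6 h was -0.63 for the 9 genes and -0.03 for all genes. Between 2 and 6 h, 5 of 9 passed and TREX1 was called (60.1% passed, 12.0% called). The 2 h and 6 h comparisons of a line share its 3 untreated libraries.

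**Figure D3:**
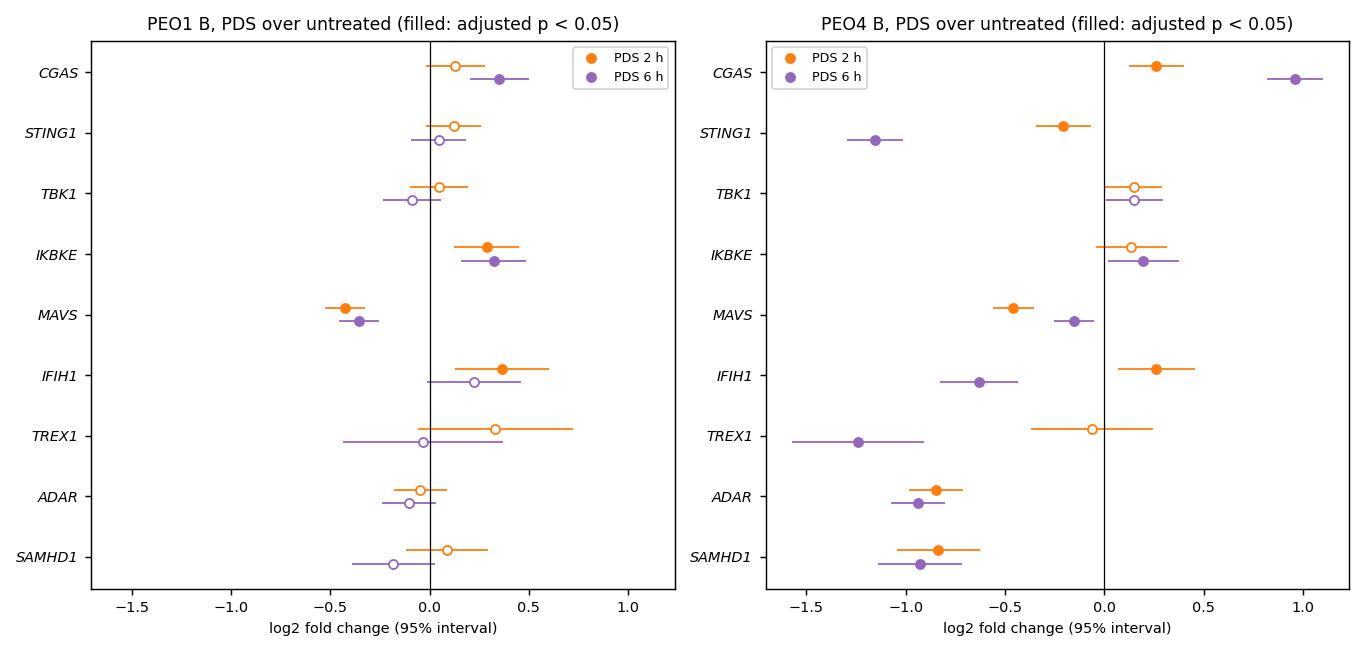
Log2 fold change of PDS over untreated cells with its 95% interval, orange after 2 h and purple after 6 h, for PEO1 B (left) and PEO4 B (right); filled symbols passed at an adjusted p under 0.05, and ZBP1 was too low to test. In PEO1 B every value lies within -0.42 and 0.36, while in PEO4 B the values at 6 h run from -1.24 for TREX1 to 0.96 for CGAS.

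Testing the difference between the lines' responses directly, with an interaction term, 3 of 9 passed at 2 h (37.3% of all genes passed, 11.0% were called) and 8 of 9 at 6 h (47.4% passed, 14.8% called). At 2 h these were STING1, ADAR and SAMHD1. None was called at 2 h by edgeR, by DESeq2 or at an unadjusted p under 0.05 with that fold. At 6 h DESeq2 passed 7, TBK1 being lost, and in the edgeR fit only IKBKE did not pass (difference -0.13, SE 0.118, 95% interval -0.37 to 0.12). Within treated cells, 6 of 9 differed between the lines at 2 h (72.9% of all genes passed, 26.5% called) and 8 of 9 at 6 h (68.6% passed, 23.0% called).

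CGAS, the DNA sensor, lies at chr6:73413515-73452297 on the minus strand (hg38). In the A pair it measured 13.9, 16.0 and 16.9 CPM in PEO1 and 35.2, 37.6 and 35.4 CPM in PEO4. The groups did not overlap, and PEO4 was higher by 1.21 on the log2 scale (SE 0.0995, adjusted p = 4.03e-07, edgeR). In the B pair the untreated levels were 22.2, 23.7 and 22.3 CPM in PEO1 and 37.4, 35.8 and 39.2 CPM in PEO4, again without overlap. That difference was 0.72 (SE 0.0728, adjusted p = 3.27e-09).

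With PDS, CGAS in PEO4 B measured 45.8, 39.9 and 49.1 CPM at 2 h and 71.8, 74.8 and 72.2 CPM at 6 h. Each time point lay above the one before in all 3 libraries. The rise was 0.26 at 2 h (SE 0.0683, adjusted p = 0.00164) and 0.96 at 6 h (SE 0.0679, adjusted p = 6.2e-12), a 1.95-fold increase, and the step from 2 to 6 h was itself 0.70 (adjusted p = 3.13e-09). The 2 h rise was lost when libraries were scaled by their totals (adjusted p = 0.088). In PEO1 B the levels were 25.4, 26.0 and 23.2 CPM at 2 h and 29.0, 29.8 and 28.2 CPM at 6 h. The 6 h libraries all stood above the untreated ones and the change was 0.35 (SE 0.072, adjusted p = 2.2e-04), while 2 h overlapped the untreated range at 0.13 (adjusted p = 0.14). PEO4 B rose more than PEO1 B at 6 h, by 0.61 (SE 0.0989, adjusted p = 1.94e-05), and among cells treated for 6 h CGAS was 2.51 times as high in PEO4 B. An exon of CGAS shares 128 bases with an exon of DDX43 on the opposite strand.

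STING1, the receptor for cGAMP, lies at chr5:139475533-139482935 on the minus strand. Its A levels were 106, 88.2 and 91.4 CPM in PEO1 and 97.0, 107 and 110 CPM in PEO4. These ranges overlapped, and the difference of 0.14 did not pass (SE 0.0853, adjusted p = 0.182, 95% interval -0.05 to 0.32), though it did without PEO1 A replicate 1 (adjusted p = 0.0451) or PEO4 A replicate 1 (adjusted p = 0.0335). In the untreated B cells it measured 40.2, 47.9 and 44.9 CPM in PEO1 and 61.3, 58.3 and 61.3 CPM in PEO4. PEO4 B was higher in all 3 libraries, by 0.44 (SE 0.0681, adjusted p = 2.92e-06).

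After 6 h of PDS the order of the lines was the reverse. In PEO4 B, STING1 stood at 52.3, 56.0 and 48.7 CPM after 2 h and at 25.04, 28.9 and 27.5 CPM after 6 h, and no library of one time point reached the range of the one before. The fall was 0.21 on the log2 scale at 2 h (a log2 fold change of -0.21, SE 0.0664, adjusted p = 0.00871) and the log2 fold change at 6 h was -1.15 (SE 0.0686, adjusted p = 2.78e-13), 2.23-fold lower. The 2 h fall no longer passed without PEO4 B 2 h replicate 3 (adjusted p = 0.0655). In PEO1 B, STING1 was 48.9, 47.7 and 48.1 CPM at 2 h and 47.5, 45.1 and 44.7 CPM at 6 h, ranges that overlapped the untreated one, with changes of 0.12 and 0.05 that did not pass (95% intervals -0.02 to 0.26 and -0.09 to 0.19). The 2 h change passed without PEO1 B untreated replicate 2 (adjusted p = 0.0365). The response differed between the lines by -0.33 at 2 h (adjusted p = 0.00831) and by -1.20 at 6 h (SE 0.0962, adjusted p = 4.69e-10). At 6 h the treated PEO4 B cells were below the treated PEO1 B cells by 1.69-fold (log2 fold change -0.76, adjusted p = 3.64e-10).

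Sensor and receptor moved in opposite directions in PEO4 B. The per-kilobase ratio of CGAS to STING1 within a library was 0.421 ± 0.0110 (SD, n = 3) in untreated PEO4 B, 0.587 at 2 h (0.484 to 0.683 over 3 libraries) and 1.83 ± 0.102 at 6 h (1.76 to 1.94). In PEO1 B it was 0.349 ± 0.0224 untreated, 0.350 ± 0.0212 at 2 h and 0.430 ± 0.0172 at 6 h. Only in the PEO4 B cells treated for 6 h did CGAS exceed STING1 per kilobase, out of the 8 conditions measured. In the A pair the ratio was 0.112 ± 0.0202 in PEO1 and 0.234 ± 0.0144 in PEO4.

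**Figure D4:**
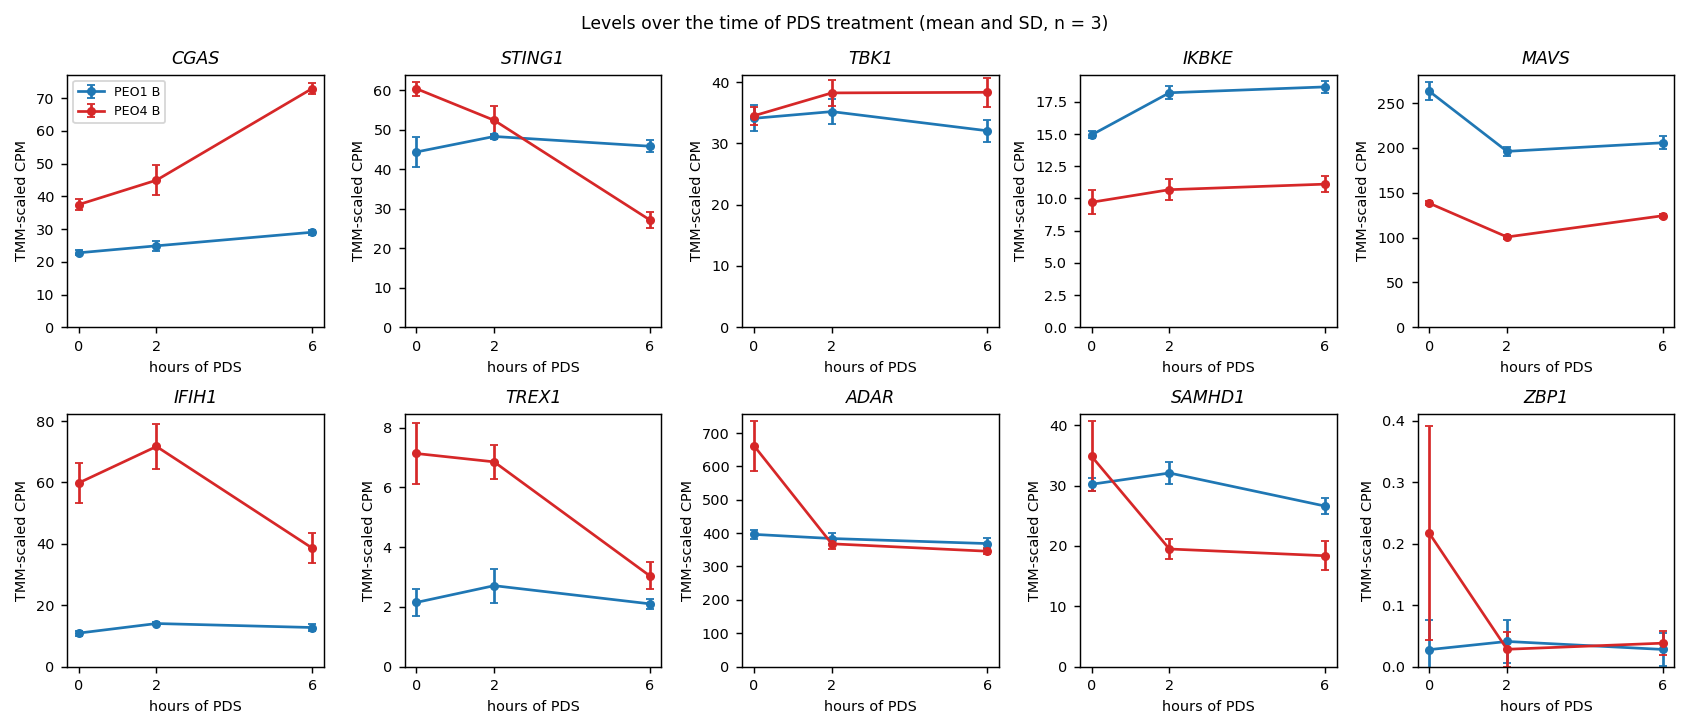
Mean TMM-scaled CPM with SD (n = 3 libraries) against hours of PDS for each of the 10 genes in PEO1 B (blue) and PEO4 B (red). In PEO4 B, CGAS climbs from 37.5 to 72.9 CPM while STING1 declines from 60.3 to 27.1, and ADAR drops from 662 to 368 CPM by 2 h and stands at 346 at 6 h.

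TREX1, the main cytosolic DNA exonuclease, lies at chr3:48465811-48467645 on the plus strand. It had 0 counts in all 6 A libraries, a level that allows at most 0.0922 CPM in the shallowest of them by counting error alone. That 0 is not an expression level that can be read at face value: 1016 bases of a TREX1 exon are also annotated to ATRIP, which had 1 to 18 counts in the A libraries and 241 to 621 in the B libraries, and 162 genes were at 0 in all A libraries with at least 100 counts in every B library, with 0 genes the other way round. In the B table TREX1 was low but measurable, at 1.82, 1.94 and 2.68 CPM in untreated PEO1 and 8.18, 6.18 and 7.05 CPM in untreated PEO4. The groups did not overlap, and PEO4 B was higher by 1.73 (SE 0.178, adjusted p = 4.51e-09).

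In PEO4 B, TREX1 measured 6.30, 7.44 and 6.82 CPM after 2 h of PDS, inside the untreated range, and 2.67, 3.54 and 2.90 CPM after 6 h, below it. The change was -0.06 at 2 h (adjusted p = 0.732, 95% interval -0.37 to 0.24) and -1.24 at 6 h (SE 0.16, adjusted p = 2.06e-07), 2.36-fold lower. PEO1 B stood at 3.24, 2.77 and 2.12 CPM at 2 h and 2.06, 2.27 and 1.97 CPM at 6 h. Neither time point separated from untreated PEO1 B (0.33, adjusted p = 0.148, and -0.03, adjusted p = 0.896), but the 2 h rise passed without PEO1 B untreated replicate 3 (adjusted p = 0.0437) or PEO1 B 2 h replicate 3 (adjusted p = 0.0414). The 6 h responses differed by -1.21 (SE 0.252, adjusted p = 3.42e-04). ATRIP, which shares TREX1's exon, changed by -0.34 in PEO4 B at 6 h and was 0.50 higher in untreated PEO4 B than PEO1 B, both passed and both smaller than the TREX1 values. A further entry, ATRIP-TREX1, had 240 to 277 counts in untreated PEO1 B and 306 to 403 in untreated PEO4 B. ATRIP had 241 to 276 and 305 to 399 there, and TREX1 38 to 61 and 123 to 189. In the A libraries ATRIP-TREX1 had 2 to 12 counts. How reads in the shared exon were divided between these entries was not tested, and the TREX1 levels and changes carry that limit.

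SAMHD1, the deoxynucleotide hydrolase, lies at chr20:36890229-36951893 on the minus strand. Its levels were 47.5, 49.5 and 49.2 CPM in PEO1 A and 156, 199 and 183 CPM in PEO4 A. PEO4 A was higher without overlap, by 1.88 (SE 0.091, adjusted p = 3.69e-09), 3.67-fold. In the B pair the untreated levels were 31.5, 29.4 and 29.8 CPM in PEO1 and 29.0, 34.9 and 40.7 CPM in PEO4, which overlapped. The difference of 0.21 did not pass (SE 0.101, adjusted p = 0.0771), but did without PEO4 B untreated replicate 1, the lowest library of its group (0.33, adjusted p = 0.00492).

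After 2 h of PDS, SAMHD1 in PEO4 B stood at 20.05, 17.6 and 20.8 CPM, and after 6 h at 15.7, 19.2 and 20.2 CPM. All 6 treated libraries were below all 3 untreated ones, with log2 fold changes of -0.84 (SE 0.101, adjusted p = 1.8e-07) and -0.93 (SE 0.102, adjusted p = 3.03e-08), and the step between 2 and 6 h was -0.09 (adjusted p = 0.463). PEO1 B held 31.1, 31.0 and 34.2 CPM at 2 h and 25.2, 27.0 and 27.7 CPM at 6 h, with changes of 0.09 (adjusted p = 0.487) and -0.18 (adjusted p = 0.13). All 3 libraries at 6 h lay below every untreated PEO1 B library, and the 6 h change passed with library totals (adjusted p = 0.0104), upper-quartile scaling (adjusted p = 0.0287) and only the groups compared (adjusted p = 0.0202). The responses differed by -0.92 at 2 h (adjusted p = 1.97e-05) and -0.74 at 6 h (adjusted p = 1.78e-04). An exon of SAMHD1 shares 1068 bases with one of TLDC2 on the opposite strand.

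On the RNA side, IFIH1 encodes MDA5 and lies at chr2:162267074-162318684 on the minus strand. Its difference between the lines was the largest of the 9 tested genes in both pairs. PEO1 A held 40.4, 38.5 and 38.8 CPM and PEO4 A 166, 194 and 189 CPM, a difference of 2.22 (SE 0.08, adjusted p = 2.66e-10) or 4.66-fold. Untreated PEO1 B held 11.4, 11.4 and 9.96 CPM and untreated PEO4 B 52.7, 60.9 and 65.9 CPM, a difference of 2.46 (SE 0.109, adjusted p = 5.89e-15) or 5.49-fold. The groups were far apart in both pairs, with the lowest PEO4 library above every PEO1 library.

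IFIH1 went up and then down in PEO4 B. It stood at 73.0, 78.2 and 64.0 CPM at 2 h, overlapping the untreated range, and at 33.1, 40.2 and 42.5 CPM at 6 h, below both. The 2 h change of 0.26 passed (SE 0.0927, adjusted p = 0.0171) but was lost in 5 of 14 alternative fits, over which the adjusted p ran from 0.00348 to 0.255. The 6 h change was -0.63 (SE 0.0946, adjusted p = 3.33e-06) and the step from 2 to 6 h -0.90 (adjusted p = 3.75e-08). PEO1 B measured 14.2, 13.5 and 14.3 CPM at 2 h and 11.98, 11.97 and 14.2 CPM at 6 h, all above its untreated libraries. The change was 0.36 at 2 h (SE 0.114, adjusted p = 0.0104, lost in 3 of 14 alternative fits) and 0.22 at 6 h (adjusted p = 0.107). At 6 h the responses differed by -0.86 (SE 0.149, adjusted p = 6.19e-05), and PEO4 B still exceeded PEO1 B by 1.60 (adjusted p = 3.58e-12).

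Over the 18 B libraries, the genes whose log2 CPM followed IFIH1 most closely were ISG15 (Pearson r = 0.994), an interferon-induced ubiquitin-like protein, and DDX60 (r = 0.994), an interferon-induced helicase. These points share line and treatment, so the correlation is a description of 6 conditions. ISG15 measured 336, 397 and 521 CPM in untreated PEO4 B and 148, 172 and 193 CPM after 6 h of PDS. The interferon-stimulated response element, which binds the interferon-activated ISGF3 complex and IRF proteins, has the core GAAANNGAAA. In the RefSeq promoter windows (GRCh38.p14, the 250 bases before each start, both strands searched) this core was found in 3.02% of 35116 promoters. It was found in 7 of the 8 interferon readout genes with a window, and, among the 7 sensing genes with a window, in IFIH1 alone. No window was on hand for CGAS, STING1 and ZBP1. The IFIH1 window (chr2:162318685-162318934, minus strand) is printed because it holds such cores. The search took only matches that do not overlap and found 2, in capitals. They lie 159 to 150 bases upstream of the start on the opposite strand and 21 to 12 bases upstream on the gene's own strand. The matches of ISG15 (chr1:1013374-1013403, plus strand) and DDX60 (chr4:168318821-168318850 and chr4:168318786-168318815, minus strand) follow for comparison with 10 bases on either side. A further core overlaps the first capitalised core of IFIH1, and another overlaps that of ISG15. The remaining bases of both are left in lower case.
IFIH1 window: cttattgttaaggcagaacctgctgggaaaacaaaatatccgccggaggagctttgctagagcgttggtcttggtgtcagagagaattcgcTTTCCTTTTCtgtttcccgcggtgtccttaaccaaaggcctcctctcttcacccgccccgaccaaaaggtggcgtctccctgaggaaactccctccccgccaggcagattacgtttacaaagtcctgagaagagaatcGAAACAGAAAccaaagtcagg
ISG15: catgcctcggGAAAGGGAAAccgaaactga
DDX60 first: gtgctgaaggGAAACTGAAAcctaagtgct
DDX60 second: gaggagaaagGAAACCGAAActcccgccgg
The cores are letter matches and not measured binding sites. The interferon gamma element TTCNNNGAA was found in 6.57% of promoters and in none of the 7 windows, which says only that these letters are not there.

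MAVS, the mitochondrial adaptor of MDA5, lies at chr20:3846799-3876123 on the plus strand. Unlike its sensor it was lower in PEO4. PEO1 A held 285, 287 and 259 CPM and PEO4 A 167, 149 and 151 CPM, a log2 difference of -0.83 (SE 0.078, adjusted p = 1.39e-06). Untreated PEO1 B held 254, 263 and 273 CPM and untreated PEO4 B 136, 139 and 140 CPM, a difference of -0.93 (SE 0.0494, adjusted p = 1.66e-14). The groups were well separated in both pairs.

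MAVS fell in both lines at both times. PEO1 B stood at 191, 198 and 200 CPM after 2 h and 208, 198 and 212 CPM after 6 h, and PEO4 B at 102, 101 and 98.9 CPM and then at 122, 126 and 126 CPM. Every treated library was below every untreated library of its line. The log2 fold changes were -0.42 and -0.36 in PEO1 B (adjusted p = 9.67e-08 and 1.23e-06) and -0.46 and -0.15 in PEO4 B (adjusted p = 1.49e-08 and 0.00767). At 2 h the responses did not separate (difference -0.03, 95% interval -0.18 to 0.11). Between 2 and 6 h PEO4 B regained 0.30 (SE 0.049, adjusted p = 8.98e-06), while PEO1 B changed by 0.07 (adjusted p = 0.478), and at 6 h the responses differed by 0.20 (SE 0.0691, adjusted p = 0.0186). The 6 h fall in PEO4 B was lost without PEO4 B 6 h replicate 1 (adjusted p = 0.0545) and with no filter on low counts (adjusted p = 0.0685).

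With the sensor higher and the adaptor lower, the ratio of IFIH1 to MAVS per kilobase was 0.136 ± 0.0145 (SD, n = 3) in untreated PEO1 B and 1.42 ± 0.133 in untreated PEO4 B. After 2 h of PDS it was 0.234 ± 0.00999 in PEO1 B and 2.33 ± 0.212 in PEO4 B, and after 6 h 0.202 ± 0.0161 and 1.02 ± 0.112. In the A pair it was 0.465 ± 0.0252 in PEO1 and 3.86 ± 0.539 in PEO4. The representative MAVS transcript is 11731 bases long, and the per-kilobase values depend on that length.

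Of the kinases, TBK1, which phosphorylates IRF3, lies at chr12:64452090-64502114 on the plus strand and moved least. It measured 43.3, 47.0 and 47.9 CPM in PEO1 A and 56.7, 59.6 and 51.7 CPM in PEO4 A, a difference of 0.28 without overlap (SE 0.0819, adjusted p = 0.00939). Untreated, it measured 35.8, 34.8 and 31.7 CPM in PEO1 B and 35.5, 32.8 and 35.3 CPM in PEO4 B. These overlapped, and the difference of 0.02 (adjusted p = 0.828) has a 95% interval of -0.13 to 0.17. After PDS all 12 treated libraries lay between 30.5 and 40.3 CPM, and none of the 4 PDS comparisons with untreated cells passed (log2 fold changes 0.05 and -0.09 in PEO1 B, 0.15 and 0.15 in PEO4 B). Some passed in alternative fits: PEO1 B at 6 h as a fall with library totals (adjusted p = 0.00787) and upper-quartile scaling (adjusted p = 0.0353), and PEO4 B as a rise at 2 h and 6 h with no filter (adjusted p = 0.0477 and 0.0313) and without PEO4 B 2 h replicate 2 (adjusted p = 0.0258) or 6 h replicate 3 (adjusted p = 0.0191). The 6 h responses differed by 0.24 (SE 0.0989, adjusted p = 0.0491), which no longer passed in 16 of 20 alternative fits (adjusted p 0.0253 to 0.131). Among cells treated for 6 h, PEO4 B was 0.26 above PEO1 B (adjusted p = 0.0017).

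IKBKE, the inducible relative of TBK1, lies at chr1:206470476-206496889 on the plus strand. It measured 7.92, 7.63 and 8.45 CPM in PEO1 A and 8.98, 13.2 and 11.2 CPM in PEO4 A, higher in PEO4 by 0.47 (SE 0.153, adjusted p = 0.0171). That difference no longer passed without PEO1 A replicate 2 (adjusted p = 0.0621) or PEO4 A replicate 2 (adjusted p = 0.0861). In untreated B cells it measured 15.1, 14.6 and 15.1 CPM in PEO1 and 10.7, 9.59 and 8.84 CPM in PEO4, lower in PEO4 by 1.54-fold (log2 fold change -0.62, SE 0.0877, adjusted p = 8.88e-07). The B groups did not overlap.

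With PDS, IKBKE in PEO1 B stood at 17.7, 18.6 and 18.3 CPM at 2 h and 18.2, 18.7 and 19.1 CPM at 6 h, above every untreated library. The rise was 0.29 (SE 0.0802, adjusted p = 0.00416) and 0.32 (SE 0.0801, adjusted p = 0.00155). Neither passed with library totals as the scale (adjusted p = 0.151 and 0.0701). In PEO4 B it measured 11.3, 11.01 and 9.77 CPM at 2 h and 11.8, 10.7 and 10.9 CPM at 6 h, overlapping the untreated range. The changes were 0.13 (adjusted p = 0.177) and 0.20 (adjusted p = 0.0478). The 6 h change no longer passed in 11 of 14 alternative fits (adjusted p 0.0128 to 0.718). TBK1 over IKBKE per kilobase was 2.45 ± 0.172 in untreated PEO1 B, 2.07 ± 0.0876 at 2 h and 1.84 ± 0.0860 at 6 h. In PEO4 B it was 3.83 ± 0.392, 3.86 ± 0.491 and 3.71 ± 0.288. An IKBKE exon shares 102 bases with the antisense gene IKBKE-AS1, which the tables do not list.

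ADAR, the RNA editor, lies at chr1:154581695-154628013 on the minus strand. It measured 428, 440 and 417 CPM in PEO1 A and 1243, 1053 and 1081 CPM in PEO4 A, higher in PEO4 by 1.39 (SE 0.0877, adjusted p = 3.72e-08). Untreated PEO1 B held 401, 406 and 381 CPM and untreated PEO4 B 629, 609 and 749 CPM, higher in PEO4 by 0.74 (SE 0.0655, adjusted p = 2.8e-10). Neither pair overlapped. The constitutive and the interferon-induced ADAR transcripts are summed in gene counts and were not separated.

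With PDS, ADAR fell in PEO4 B. In that line, ADAR stood at 382, 353 and 369 CPM after 2 h and 335, 352 and 350 CPM after 6 h, all below the untreated libraries. The log2 fold change was -0.85 at 2 h (SE 0.0654, adjusted p = 4.51e-11) and -0.94 at 6 h (SE 0.0655, adjusted p = 4.97e-12), with -0.09 between the time points (adjusted p = 0.242). PEO1 B held 371, 378 and 403 CPM at 2 h and 365, 353 and 388 CPM at 6 h, with changes of -0.05 (95% interval -0.18 to 0.09) and -0.10 (-0.24 to 0.03) that did not pass. Both passed as falls with library totals as the scale (adjusted p = 0.0194 and 0.00335), and the 6 h one also with upper-quartile scaling (adjusted p = 0.016). The responses differed by -0.80 at 2 h (SE 0.0921, adjusted p = 2.24e-07) and -0.83 at 6 h (SE 0.0922, adjusted p = 8.68e-08). In treated cells the lines differed by -0.06 at 2 h (95% interval -0.19 to 0.07) and -0.09 at 6 h (-0.23 to 0.04), neither of which passed. At 6 h the 3 PEO4 B libraries were nonetheless all below the 3 PEO1 B libraries, and with only the groups compared that difference passed (adjusted p = 0.0347).

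Untreated PEO4 B replicate 3 was the highest of its group for ADAR, IFIH1 and SAMHD1. Without it, the 6 h changes in PEO4 B were -0.84 for ADAR, -0.55 for IFIH1 and -0.80 for SAMHD1, and all 3 passed. The genes most like ADAR over the 18 B libraries were DTX3L (r = 0.972), an E3 ubiquitin ligase, and OAS3 (r = 0.972), an interferon-induced oligoadenylate synthetase. A G-quadruplex pattern, 4 runs of at least 3 guanines with 1 to 7 bases between them on either strand, was found in 23.5% of promoters. Among the 7 sensing genes with a window, only ADAR held it, before a start that is internal to the gene (chr1:154608819-154608862, minus strand). It is printed with the match in capitals, since PDS is a ligand of such structures. The match lies 55 to 32 bases upstream as a run of cytosines, the guanines being on the other strand.
ADAR: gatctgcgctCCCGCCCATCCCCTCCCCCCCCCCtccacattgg
No G-quadruplex was measured in these data, and 1 of 7 is not set apart from the 23.5% of all promoters.

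ZBP1, the Z-form sensor, lies at chr20:57603846-57620576 on the minus strand and was barely expressed. It had 14, 6 and 10 counts in PEO1 A and 38, 20 and 11 counts in PEO4 A, 0.160 to 0.585 CPM. The difference of 1.22 passed (SE 0.473, adjusted p = 0.0403) but was lost in 7 of 12 alternative fits (adjusted p 0.0326 to 0.133), DESeq2 among them (adjusted p = 0.0857). Apart from the 38 of PEO4 A replicate 1, the ZBP1 counts of the A libraries fall in the range of 1 to 20. In that range even values were in excess in the A libraries. In the B libraries ZBP1 did not reach the count filter and was not tested. Untreated PEO4 B had 2, 3 and 9 counts, and each of the other 15 B libraries had 0 to 2. After PDS, PEO4 B had 1, 2 and 0 counts at 2 h and 1, 1 and 2 at 6 h. With no filter on low counts ZBP1 was called at both times in PEO4 B and between the untreated B lines, on these few counts. Of its partners in necroptosis, RIPK3 was at 0 counts in all 3 untreated PEO4 B libraries, against 0.575 to 0.878 CPM in untreated PEO1 B.

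The list was set beside 6 lists of neighbouring genes. In PEO4 B at 6 h, 9 of 12 other RNA sensing genes fell and 2 rose, where 35.2% of all genes fell and 34.6% rose. TLR3, the endosomal RNA receptor, changed by -2.57 and DHX58 (LGP2) by -1.81, while TOMM70, the mitochondrial import receptor that binds MAVS, rose by 0.71. In untreated B cells 9 of these 12 were higher and 1 lower in PEO4 (34.0% and 34.6% of all genes), DDX60 by 2.91 and RIGI (listed as DDX58), the other RNA helicase upstream of MAVS, by 2.17. In the A pair 8 were higher and 2 lower (30.1% and 31.6% of all genes), with RIGI at 2.37. In PEO1 B 3 were higher and 1 lower at 2 h (26.4% and 26.2%), and 2 were higher and 2 lower at 6 h (27.0% and 26.0%).

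Of the 9 tested genes in the list of other DNA sensors and cGAMP handling, 3 rose and 3 fell in PEO4 B at 6 h, near the shares of all genes (34.6% and 35.2%). IFI16, a nuclear DNA sensor, measured 29.4, 38.3 and 40.5 CPM in untreated PEO4 B and 10.3, 11.7 and 11.6 CPM at 6 h. It fell by 1.69 on the log2 scale (log2 fold change -1.69), having been 1.69 higher in untreated PEO4 B than PEO1 B. DDX41, a proposed DNA sensor, rose by 0.47 there. AIM2 had at most 6 counts in any library and was not tested. In the list of kinase scaffolds and the IRF3 step, 2 of 9 rose and 4 fell at 6 h, where 69.8% of all genes passed in either direction. IRF7, the interferon-inducible relative of IRF3, changed by -1.98 at 2 h and -2.72 at 6 h in PEO4 B and by -0.74 and -1.01 in PEO1 B. IRF3 itself changed by -0.03 in PEO4 B at 6 h, which did not pass.

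Among nucleic acid clearance genes, 6 of 8 rose and 2 fell in PEO4 B at 6 h, where 34.6% of all genes rose and 35.2% fell. PNPT1, which degrades mitochondrial RNA, rose by 0.49 and RNASEH2B, a subunit of RNase H2, by 0.37. The editing enzyme ADARB1 changed by -1.36 and DNASE2, the lysosomal nuclease, by -0.75. Of 5 ZBP1 partners, 2 rose and 1 fell there, against the same shares of all genes, MLKL by 0.91 and RIPK1 by 0.17 upward. In untreated B cells 2 were higher and 2 lower in PEO4, where 34.0% of all genes were higher and 34.6% lower.

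**Figure D5:**
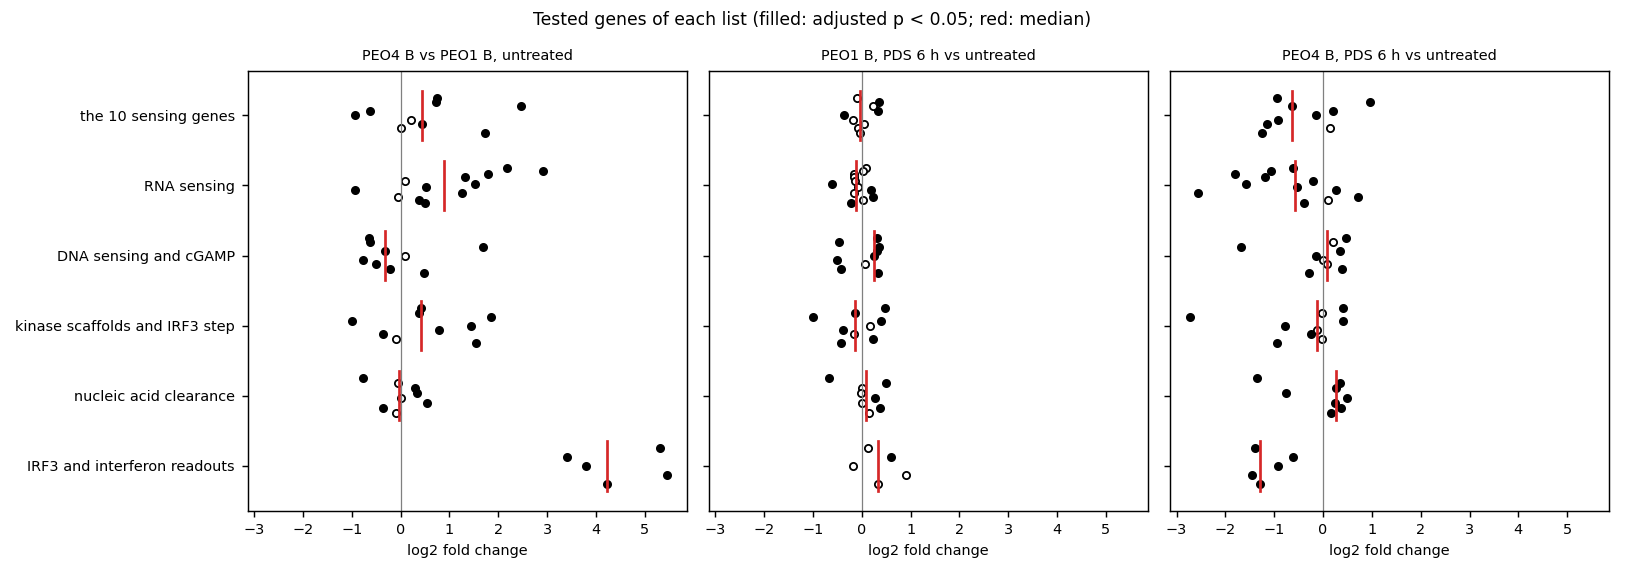
Log2 fold change of each tested gene in the 10 sensing genes and 5 neighbouring lists, for PEO4 B against PEO1 B untreated (left) and for 6 h of PDS in PEO1 B (middle) and PEO4 B (right); filled symbols passed at an adjusted p under 0.05 and red bars are list medians. The interferon readouts sit at a median of 4.22 on the left and -1.29 on the right, and the sensing genes at 0.44 and -0.63.

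The interferon readouts were 10 interferon and interferon-induced genes. Whether their levels followed from the sensing genes was not tested. IFNB1, the classical IRF3 target, had 0 counts in all 24 libraries, which allows at most 0.16 CPM in the shallowest library. IFNL1, another interferon gene of this list, was called as higher in PEO4 A than in PEO1 A. Of the 7 readouts tested in the A pair 6 were higher in PEO4 and all 6 were called, and of the 5 tested in untreated B cells all 5 were higher and called, at a median of 4.22, where 25.8% and 24.8% of all genes were called in either direction. IFIT1, which binds RNA lacking the cap methylation of host messages, was 5.32 higher. It measured 4.36, 4.75 and 2.77 CPM in PEO1 B and 126, 158 and 190 CPM in PEO4 B. At 2 h of PDS in PEO4 B only IFIT2 passed (0.71), where 33.3% of all genes rose. At 6 h all 5 had fallen, where 35.2% of all genes fell, IFIT1 with a log2 fold change of -1.39 and ISG15 of -1.29. In PEO1 B 3 of 5 were higher at 2 h and 1 at 6 h, where 26.4% and 27.0% of all genes were higher.

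Summed markers of other cell types were low but moved with treatment in PEO4 B. All 4 genes of the fibroblast list had a count in untreated PEO4 B, but only 1 had at least 10 counts in each of these libraries. The list summed to 14.7 to 31.9 CPM untreated, 4.96 to 6.69 at 2 h and 2.24 to 3.37 at 6 h. COL1A1 among them had a log2 fold change of -2.99 at 6 h. In PEO1 B the list sum went from 5.41 to 7.69 CPM untreated to 2.53 to 3.33 at 6 h. The 6 leukocyte markers summed to 1.71 to 2.94 CPM in untreated PEO4 B, 5.63 to 6.17 at 2 h and 1.74 to 2.14 at 6 h. Their defining genes PTPRC and CD3E were at 0 in all untreated B libraries. The 3 endothelial markers summed to 1.39 to 2.96 CPM untreated and 0.0586 to 0.183 at 6 h. The part of these markers in the results was not tested, and in bulk RNA a change in the number of expressing cells and a change in RNA per cell cannot be told apart.

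For the other members, the genes most like them over the 18 B libraries were, by Pearson r, NOP14-AS1 (0.986) and NUDCD1 (0.984) for CGAS and HDAC5 (0.971) and TRIOBP (0.969) for STING1. For MAVS they were ATRN (0.991) and LTBP2 (0.985), for IKBKE EHD1 (0.987) and CHML (0.983), and for TREX1 WDR25 (0.974) and TMBIM4 (0.967). SAMHD1 was closest to CYFIP2 (0.946) and ANTXR1 (0.929). TBK1 had the loosest match, IARS2 (0.847) and RESF1 (0.820). Among the 10 genes, the conditions ranked differently from gene to gene. CGAS ran from PEO4 B at 6 h down through PEO4 B at 2 h, untreated PEO4 B and PEO1 B at 6 h without overlap between neighbours, whereas neighbouring conditions of TBK1 overlapped throughout.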

How the data were processed

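RNA-seq counts of untreated PEO1 A and PEO4 A (6 libraries) and of PEO1 B and PEO4 B untreated or with PDS for 2 or 6 h (18 libraries) were analysed. The deposited values are raw counts per gene, made by the authors; per the submitters' processing notes FastQC, fastp, STAR and featureCounts were used with hg38, with versions not given in the sources used here. A libraries were poly(A)-selected and strand-specific per the labels; whether counting used strand is not given in the sources used here. Lines without readable counts (2 and 1) were left out.

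Counts were fitted per table in edgeR 4.0.16 (R 4.3.3, limma 3.58.1) with TMM scaling, filterByExpr (minimum count 10, minimum total 15), a mean per condition and robust quasi-likelihood tests, adjusted by Benjamini-Hochberg over the 15882 (A) or 17020 (B) genes tested. The study used DESeq2; DESeq2 1.42.0 served as an alternative, beside other scalings, filters, a replicate block, only the groups compared, and each library left out. The scripts were tested on simulated data. Replicate pairs differed by a chi-square of 2.13 to 52.1 per gene, and none was counted as a duplicate.

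The members and lists were chosen with earlier results of these data known. Named genes are all 10 members, up to 3 called genes with the largest change per list and comparison, and the 2 genes with the highest Pearson r to each member; IFNB1, IFI16, DDX41, AIM2, IRF3, TOMM70, RIGI, PNPT1, RNASEH2B, DNASE2, RIPK1, RIPK3, MLKL, IFIT2, ATRIP and COL1A1 were named after their values were seen. Gene positions are from GENCODE 44 and per-kilobase values use its MANE transcript; promoters are RefSeq (GRCh38.p14), 7 of 10 members matched. Limits for counts of 0 (3 counts) cover counting error only.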

Additional observations from a re-analysis of the deposited data

Results flagged for a closer look

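The response to PDS was compared between PEO4 B and PEO1 B with 3 libraries per condition. The test was the interaction term of the edgeR quasi-likelihood fit over 17020 genes. It passed in 3 of 9 sensing genes at 2 h (37.3% of all genes) and 8 of 9 at 6 h (47.4%). At 2 h the response in PEO4 B minus that in PEO1 B was -0.33 for STING1 (adjusted p = 0.00831), -0.80 for ADAR (adjusted p = 2.24e-07) and -0.92 for SAMHD1 (adjusted p = 1.97e-05) on the log2 scale. At 6 h it was 0.61 for CGAS (adjusted p = 1.94e-05), 0.24 for TBK1 (adjusted p = 0.0491) and 0.20 for MAVS (adjusted p = 0.0186). It was -1.20 for STING1 (adjusted p = 4.69e-10), -0.86 for IFIH1 (adjusted p = 6.19e-05), -1.21 for TREX1 (adjusted p = 3.42e-04), -0.83 for ADAR (adjusted p = 8.68e-08) and -0.74 for SAMHD1 (adjusted p = 1.78e-04). The TBK1 difference no longer passed in 16 of 20 alternative fits, DESeq2 (adjusted p = 0.0647) and the replicate block (adjusted p = 0.0612) among them. DESeq2 thus passed 7 of 9. ADAR and SAMHD1 already differed at 2 h, whereas the difference for IFIH1 at 2 h was -0.10 and for TREX1 -0.39, and neither passed.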

How the results depend on the processing

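Of 1610 recomputed values of single genes, 1512 kept their direction and their side of the adjusted p threshold. Of the rest, 53 no longer passed, 25 came to pass and 20 changed sign, none of the 20 passing. With the adjusted p alone and no fold limit, the members past the threshold numbered 8 in A and 7 in B untreated, 3 and 3 in PEO1 B at 2 and 6 h, 6 and 8 in PEO4 B, 5 in PEO4 B between 2 and 6 h, 3 and 8 for the difference in response at 2 and 6 h, and 6 and 8 between treated lines. Of all genes, 61.6% passed in A and 68.6% in B untreated, and 52.6% and 53.0% in PEO1 B at 2 and 6 h. In PEO4 B the shares were 65.3% and 69.8%, and 60.1% between 2 and 6 h. They were 37.3% and 47.4% for the difference in response, and 72.9% and 68.6% between treated lines. Without a filter, 1 was called in PEO4 B at 2 h (ZBP1). By upper-quartile scaling 4 were called in PEO4 B at 6 h and 2 between 2 and 6 h, and by library totals 4 at 6 h. Leaving out each library gave 0 to 1 for the 2 h difference in response, the 1 being SAMHD1 without PEO4 B untreated replicate 1. Library totals moved the median of all genes to -0.17 in PEO1 B at both times and to -0.13 and -0.19 in PEO4 B. Signs that changed with library totals were those of CGAS (-0.0188), STING1 (-0.0271), TBK1 (-0.10) and SAMHD1 (-0.0603) in PEO1 B at 2 h, STING1 (-0.10) in PEO1 B at 6 h, and TBK1 in PEO4 B at 6 h (-0.0082) and between 2 and 6 h (-0.0266). With upper-quartile scaling they were those of TBK1 (-0.0318) in PEO1 B at 2 h, STING1 (-0.0424) at 6 h and TBK1 (-0.0468) in PEO4 B between 2 and 6 h, and with a minimum count of 50 the last was -0.0155. Leaving out libraries moved SAMHD1 from -0.16 to 0.0206 and TBK1 from -0.0342 to 0.0588 in PEO4 B between 2 and 6 h, STING1 from -0.0098 to 0.12 and TREX1 from -0.12 to 0.16 in PEO1 B at 6 h, TBK1 from -0.0307 to 0.0573 between untreated B lines, and TREX1 from -0.15 to 0.0510 in PEO4 B at 2 h. The cause was not tested.

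Replicate numbers did not pair the libraries, since same-numbered libraries correlated from -0.158 to 0.134 in their deviations. With the replicate number as a block, 4 rather than 5 members were called in A, ZBP1 being lost (adjusted p = 0.077). IKBKE in PEO4 B at 6 h (adjusted p = 0.0534) and the TBK1 difference in response (adjusted p = 0.0612) also no longer passed. SAMHD1 between untreated B lines came to pass (adjusted p = 0.0498). The block did not change which other members passed. The MAVS difference in response at 6 h no longer passed without PEO1 B untreated replicate 3 or PEO1 B 6 h replicate 2. The TREX1 difference between lines at 6 h no longer passed without PEO4 B 6 h replicate 2 (adjusted p = 0.0659). ZBP1 had at most 38 counts in any A library and at most 9 in any B library.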
